A study of Mus musculus with 6 samples.

Results

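Interferon-inducible GTPases were followed across 6 RNA-seq libraries of TCMK1, a mouse renal tubular epithelial cell line. The set comprised 9 genes chosen by symbol from the Gbp, Irg and Mx families, out of 28789 genes in the deposited table: Gbp2, Gbp3, Gbp7, Irgm1, Irgm2, Igtp, Iigp1, Mx1 and Mx2. All 6 samples received Ang II (angiotensin II), so the control group is also an Ang II-treated group. The labels give 3 samples the genotype control and 3 the genotype YOD1 overexpression. YOD1 is a deubiquitinase, and the series asks which pathways it regulates in these cells. The sources used here give neither the means of introducing YOD1 nor a vector for the controls. They also do not say whether replicates were separate cultures, so a p-value speaks of the spread between these libraries, which could be technical.

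Interferon-inducible GTPases are large nucleotide-binding proteins of cell-autonomous immunity, made when interferon receptors activate JAK kinases and STAT transcription factors. Guanylate-binding proteins (Gbp) and immunity-related GTPases (Irg) assemble on vacuoles that hold bacteria or parasites. Among the Irg proteins, Irgm1, Irgm2 and Igtp (also called Irgm3) sit on cell membranes and keep effector Irg proteins such as Iigp1 (Irga6) inactive until an infected vacuole is met. Mx proteins are dynamin-like GTPases that block viruses, Mx1 in the nucleus and Mx2 in the cytoplasm in mice. Many laboratory mouse strains carry defective Mx alleles, and the deposited table gives both Mx genes a biotype of loss of function.

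A pair of DNA elements link these genes to interferon, and they are shown because every member with a promoter in the reference carried the first of them. The interferon-stimulated response element (ISRE) is bound by IRF factors, IRF9 with its STAT partners among them, and the gamma-activated site (GAS) by STAT dimers. RefSeq promoters of build GRCm38.p6, from 250 bases before to 50 bases after the gene start, matched 6 of 9 members by symbol, while Iigp1, Mx1 and Mx2 had no entry. The ISRE core GAAANNGAAA, searched on both strands, lay in a promoter of all 6 genes, against 3.44% of all 32851 promoters and 3.99% of all 27025 genes with a promoter entry. The stretches around it follow 5′ to 3′ on the gene's strand, with the matched letters in capitals; in the Gbp genes the match is on the other strand and reads TTTCNNTTTC.
Gbp2, chr3:142620579-142620638, plus strand: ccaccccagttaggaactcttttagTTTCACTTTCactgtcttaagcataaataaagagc
Gbp3, chr3:142559974-142560039, plus strand: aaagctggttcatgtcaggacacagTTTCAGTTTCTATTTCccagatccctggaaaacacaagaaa
Gbp7, chr3:142530258-142530317, plus strand: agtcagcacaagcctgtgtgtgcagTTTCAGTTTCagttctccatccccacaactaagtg
Igtp, chr11:58199497-58199556, plus strand: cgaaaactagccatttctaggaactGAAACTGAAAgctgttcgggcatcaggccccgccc
Irgm2, chr11:58214888-58214947, plus strand: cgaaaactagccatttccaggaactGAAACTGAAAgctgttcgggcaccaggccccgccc
Irgm1, chr11:48871410-48871475, minus strand: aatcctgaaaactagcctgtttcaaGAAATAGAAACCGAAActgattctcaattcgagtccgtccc

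Gbp3 and Irgm1 each held 2 overlapping matches of the core, and the other 4 genes held 1. The first match began 30 to 64 bases before the gene start in these 6 genes. Gbp3 has a further annotated start whose promoter held no match. The promoters of Igtp and Irgm2 had 244 identical bases among 265 aligned (92.1%), with 70 bases in gaps. Those of Igtp and Irgm1 shared 154 of 218 aligned bases (70.6%), with 164 in gaps. The GAS letters TTCNNNGAA were present in the promoters of Gbp7, Igtp and Irgm2, against 8.3% of all promoters and 9.55% of all genes with a promoter entry. In Igtp and Irgm2 the GAS match lay just upstream of the ISRE core without overlapping it, starting 45 and 75 bases before the gene start where the ISRE core started at 34 and 64. Among 11 other Gbp and Irg genes with a promoter entry, 7 held the ISRE core and 5 the GAS letters. A match describes letters in this window and does not show that a factor was bound.

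Transcript levels are in FPKM (fragments scaled to transcript length and to the mapped fragments of the library), a scale per length on which genes can be compared. In the controls the 9 genes spanned from 0.0658 FPKM for Mx1 to 4.51 FPKM for Igtp. Igtp (4.51 ± 0.314, SD, n = 3) and Irgm2 (4.28 ± 0.321) led and did not differ from each other beyond their spread. Gbp2 (1.05 ± 0.529) and Irgm1 (0.941 ± 0.0647) followed and overlapped. Below them Gbp3 (0.283 ± 0.247), Gbp7 (0.178 ± 0.0799), Iigp1 (0.150 ± 0.106) and Mx2 (0.141 ± 0.0801) could not be ordered within their spread, and Mx1 stood at 0.0658 ± 0.0421. The regulatory Irg genes Igtp and Irgm2 were thus the best expressed of the set in Ang II-treated control cells, and the effector Iigp1 and both Mx genes were among the lowest. In the YOD1 libraries Igtp and Irgm2 again had the highest means, 8.91 ± 5.41 and 8.72 ± 5.47 FPKM (SD, n = 3).

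**Figure D1:**
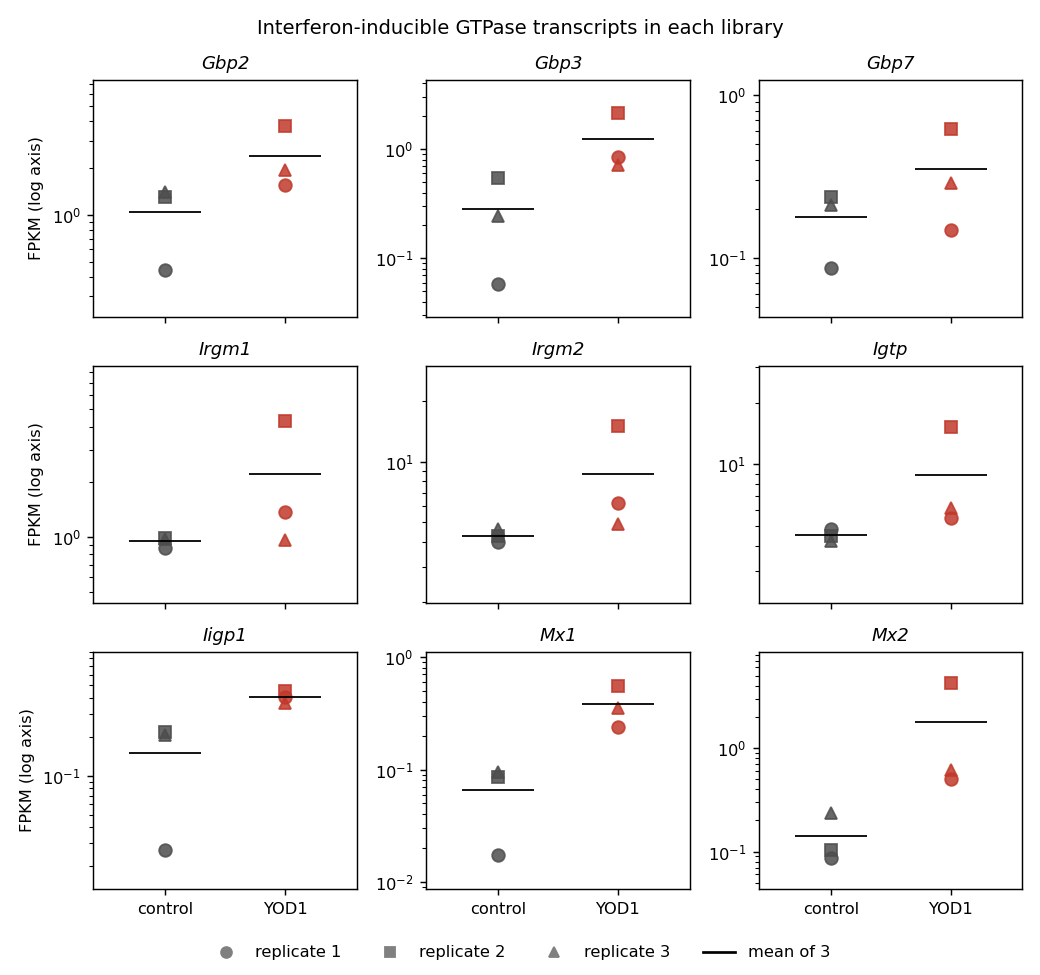
FPKM of the 9 GTPase genes (log axis, 1 panel each) in 3 control and 3 YOD1 libraries; marker shapes give the replicate number and lines the group means. In every panel the YOD1 library of replicate 2 is the highest point, and the 3 YOD1 libraries lie above all controls for 7 of 9 genes, Gbp7 and Irgm1 excepted.

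The table gives FPKM and no read counts. Low values of genes with 1 listed transcript fell on a recurring step that, taken as 1 fragment, puts the controls at 16600000 to 17400000 fragments and the YOD1 libraries at 13700000 to 14300000. Of these low genes, 505 to 517 per control and 493 to 550 per YOD1 library lay within 5% of the step, among 4132 to 4990. The step was sought in a range set beforehand, and 267 to 303 of these genes a library lay near a fixed fraction of it below 1. A step may therefore not be 1 fragment, and the estimate is rough. On this scale Igtp and Irgm2 rested on about 141 to 722 fragments a library and Gbp2 on about 19 to 127. In the controls Mx1 rested on about 0.88 to 4.66 fragments, Mx2 on about 3.66 to 9.59 and Iigp1 on about 1.42 to 12, so single fragments move their control values. Of the 9 genes, 3 passed the filter for testing (at least 1 FPKM in at least 3 libraries): Igtp and Irgm2 in all 6 libraries and Gbp2 in 5.

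Each of the 9 genes had a higher mean with YOD1 overexpression, with ratios of means from 1.98 (Igtp and Gbp7) to 12.6 (Mx2) and a median of 2.36, where the median over all tested genes was 0.923. The 3 YOD1 libraries lay above all 3 controls for 7 of 9 genes, against 6.95% of all genes in the table, 9.77% of the tested genes and 8.45% of the untested genes with a value above 0 in all libraries. None of the 3 tested members passed limma over all 11483 tested genes (adjusted p from 0.187 to 0.225), where 0.444% of genes were called higher. All 3 had an unadjusted p under 0.05 with a higher level in the YOD1 libraries, as had 7.87% of tested genes. The 9 genes were named with earlier results of these data known and vary together across the libraries, so these counts are descriptions and not tests of the set.

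The regulatory Irg genes were highest in YOD1 library 2, as were all 9 members. Irgm2 (ENSMUSG00000069874) stood at 3.98, 4.26 and 4.62 FPKM in controls 1 to 3 and at 6.25, 15.0 and 4.93 FPKM in YOD1 libraries 1 to 3. The YOD1 libraries did not overlap the controls, but library 3 was 1.15 times and library 2 was 3.5 times the control mean. On the log2(FPKM + 1) scale the fold change of Irgm2 was 0.74 with an SE of 0.32 and a 95% interval of 0.03 to 1.45 (limma adjusted p = 0.225, higher in 3 of 3 libraries). Without YOD1 library 2 it was 0.31 (limma adjusted p = 0.327).

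Igtp (ENSMUSG00000078853), the other regulatory Irg gene of similar level, stood at 4.83, 4.47 and 4.21 FPKM in the controls and at 5.47, 15.1 and 6.10 FPKM in the YOD1 libraries. Here too the groups did not overlap and YOD1 library 2 stood apart, at 3.36 times the control mean against 1.21 and 1.35 times in the others. The log2 fold change of Igtp was 0.72 with an SE of 0.31 (95% interval 0.04 to 1.40, limma adjusted p = 0.224), and 0.30 without YOD1 library 2 (limma adjusted p = 0.322). Igtp and Irgm2 share sequence: 12.3% of the 50-base stretches of the longest Igtp transcript also occur in annotated Irgm2 transcripts, so their values are not fully separate. None of the stretches of Irgm1 occurred in transcripts of other genes.

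Irgm1 (ENSMUSG00000046879) stood at 0.867, 0.981 and 0.977 FPKM in the controls and at 1.37, 4.32 and 0.963 FPKM in the YOD1 libraries. YOD1 library 3 lay inside the control range, and library 2 was 4.59 times the control mean. The ratio of means was 2.36 over all libraries and 1.24 without YOD1 library 2. Irgm1 reached 1 FPKM in 2 libraries and was therefore not tested.

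The effector Iigp1 (ENSMUSG00000054072), a GTPase that disrupts the vacuole of Toxoplasma, had a different profile. It stood at 0.0267, 0.215 and 0.207 FPKM in the controls and at 0.400, 0.450 and 0.365 FPKM in the YOD1 libraries. The 3 YOD1 libraries were close to each other and all above the controls, and YOD1 library 2 was only 1.18 times the mean of the other 2. Its ratio of means was 2.71, and 2.56 without YOD1 library 2. Control 1 was the low library, at 0.127 times the mean of controls 2 and 3, and without it the ratio was 1.92. These are about 16 to 19 fragments in a YOD1 library and about 1.42 to 12 in a control.

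Among the guanylate-binding proteins, Gbp2 (ENSMUSG00000028270) was the best expressed, at 0.442, 1.31 and 1.40 FPKM in the controls and 1.55, 3.71 and 1.94 FPKM in the YOD1 libraries. The groups did not overlap, although control 3 and YOD1 library 1 were close. The log2 fold change of Gbp2 was 0.71 with an SE of 0.27 (95% interval 0.11 to 1.31, limma adjusted p = 0.187, higher in 3 of 3 libraries). It was 0.45 without YOD1 library 2 and 0.48 without control 1 (limma adjusted p = 0.274 and 0.452).

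Gbp3 (ENSMUSG00000028268) stood at 0.0583, 0.547 and 0.243 FPKM in the controls and at 0.852, 2.16 and 0.713 FPKM in the YOD1 libraries. No YOD1 library overlapped a control, and the ratio of means was 4.39, or 2.77 without YOD1 library 2 and 3.14 without control 1. Gbp7 (ENSMUSG00000040253) stood at 0.0866, 0.236 and 0.210 FPKM in the controls and 0.149, 0.620 and 0.287 FPKM in the YOD1 libraries. YOD1 library 1 lay within the control range of Gbp7, and the ratio of means was 1.98, or 1.23 without YOD1 library 2. Of the 50-base stretches of Gbp7, 12.8% also occur in other annotated transcripts, mostly of the predicted gene Gm43802, so the Gbp7 values may hold reads from elsewhere. Gbp3 shared 4.79%.

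The Mx genes were among the lowest in the controls and had the largest ratios of means of the 9. Mx2 (ENSMUSG00000023341) stood at 0.0870, 0.104 and 0.233 FPKM in the controls and at 0.506, 4.25 and 0.609 FPKM in the YOD1 libraries. All 3 YOD1 libraries lay above the controls, and library 2 was 30.0 times the control mean against 3.58 and 4.31 times in libraries 1 and 3. The ratio of means of Mx2 was 12.6 with YOD1 library 2 and 3.94 without it. These ratios rest on about 3.66 to 9.59 fragments in a control. Of the 50-base stretches of Mx2, 6.55% also occur in annotated Mx1 transcripts.

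Mx1 (ENSMUSG00000000386) stood at 0.0175, 0.0853 and 0.0946 FPKM in the controls and at 0.237, 0.554 and 0.351 FPKM in the YOD1 libraries, with no overlap. Its ratio of means was 5.78, or 4.47 without YOD1 library 2 and 4.23 without control 1. Between the 2 Mx genes, the difference of libraries within the YOD1 group was unequal: YOD1 library 2 was 7.62 times the mean of the other YOD1 libraries for Mx2 and 1.88 times for Mx1. All 6 members under the filter were given a limma fit in a table without the filter, where no gene of 28789 was called (0.0% higher). In that fit 3 of the 9 members had an unadjusted p under 0.05 (Gbp3, Iigp1 and Mx1), against 4.9% of all genes with a higher level, and all 9 had adjusted p from 0.283 to 0.631.

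The authors' deposited table gives other calls for the same values. It lists 5 of 9 members with q under 0.05 (Mx1 0.0107, Gbp3 0.0163, Mx2 0.0197, Irgm2 0.0289 and Igtp 0.0472), where 1.33% of all genes were higher at that q. The authors' deposited table marks 4 of them as significant, all but Igtp, against 0.66% of all genes. Irgm1 (q = 0.0516), Gbp2 (q = 0.0884), Iigp1 (q = 0.165) and Gbp7 (q = 0.474) do not reach that threshold in the authors' deposited table. No source used here names the test behind these q-values.

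Within each group 1 library stood apart. YOD1 library 2 had the highest value of the 6 libraries for 9 of 9 members, against 16.8% of all genes. Control 1 had the lowest value for 8 of 9, Igtp excepted, against 13.3% of genes with a value above 0 in all libraries. The median member lay 0.289, 1.32 and 0.343 above the control mean on the log2(FPKM + 1) scale in YOD1 libraries 1, 2 and 3. Of the 9 members, 8 exceeded every control in YOD1 library 1, all 9 in library 2 and 8 in library 3. The share over all genes was counted for the 3 YOD1 libraries together (6.95% above all controls) and not per library. The counts per library can therefore not be judged against a background. The members differed in which library stood apart. Irgm1, Irgm2 and Igtp had near-equal controls (control 1 at 0.886 to 1.11 times the other controls) and a high YOD1 library 2. Iigp1, Gbp3 and Mx1 had a low control 1 (0.127 to 0.194 times), which rested on about 0.88 to 2.65 fragments. For Iigp1 the YOD1 libraries were alike. For Gbp3 and Mx1, YOD1 library 2 was 2.76 and 1.88 times the mean of the other YOD1 libraries. Gbp2 and Gbp7 had both a lower control 1 (0.326 and 0.388 times) and a higher YOD1 library 2 (2.13 and 2.85 times). Mx2 had a higher YOD1 library 2 (7.62 times). Its control 1 (0.0870 FPKM) was near control 2 (0.104 FPKM), and control 3 was higher (0.233 FPKM).

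**Figure D2:**
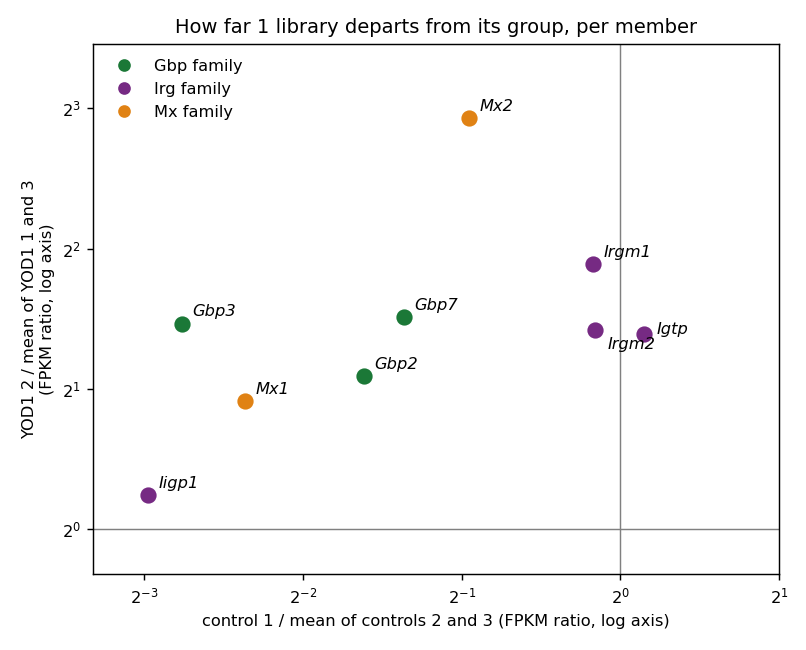
For each of the 9 genes, control 1 divided by the mean of controls 2 and 3 (x axis, FPKM ratio, log axis) and YOD1 library 2 divided by the mean of YOD1 libraries 1 and 3 (y axis, FPKM ratio, log axis); colours give the families and grey lines a ratio of 1. Irgm1, Irgm2 and Igtp lie near the vertical line, Iigp1 lies near the horizontal line at 1.18, and Mx2 lies highest at 7.62.

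Yod1 itself was also highest in YOD1 library 2, at 1.73, 7.56 and 1.86 FPKM in YOD1 libraries 1 to 3, against 0.842, 0.757 and 0.684 FPKM in the controls. Its adjusted p in limma was 0.141, while the authors' deposited table marks Yod1 as significant (q = 0.031). The 3 libraries are too few to relate the level of Yod1 to that of the GTPases, and the part of the Yod1 level in these values was not tested. Ribosomal RNA genes made up 3.24%, 4.07% and 2.22% of the FPKM sum in YOD1 libraries 1 to 3 and 0.449% to 0.775% in the controls. With rRNA genes left out and FPKM rescaled, the log2 fold changes of Gbp2, Igtp and Irgm2 were 0.69, 0.68 and 0.70. They were 0.71, 0.72 and 0.74 in the main fit. A part of the rRNA share beyond this rescaling was not tested.

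**Figure D3:**
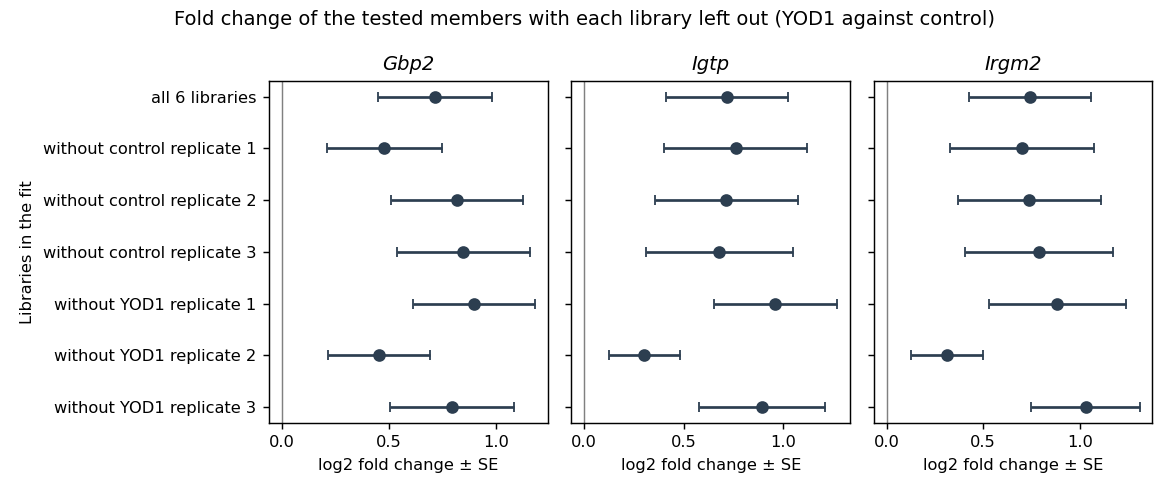
Log2 fold change (x axis, log2(FPKM + 1) scale) of the 3 tested members Gbp2, Igtp and Irgm2 with its SE, fitted with all 6 libraries and with each library left out in turn (y axis). All estimates are above 0, and for each gene the lowest one, 0.30 to 0.45, is the fit without YOD1 replicate 2.

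The tissue label was compared with marker genes, because immune and endothelial cells can express these GTPases strongly. Of 12 epithelial markers 11 were tested, led by Krt18 at 482 to 820 FPKM. The proximal tubule transporter gene Slc34a1 was listed at 0 in 5 of 6 libraries. The defining leukocyte gene Ptprc was low, at 0.0207, 0.0262 and 0.0332 FPKM in the controls. It stood at 0.0708, 0.0647 and 0.0314 FPKM in the YOD1 libraries, with overlap and a ratio of means of 2.08. The macrophage gene Adgre1 stood at 0.0258, 0.0519 and 0 FPKM in the controls and 0.0855, 0.111 and 0.165 FPKM in the YOD1 libraries, without overlap. The 8 macrophage markers summed to 26.7 to 37.1 FPKM in control and 30.1 to 42.3 FPKM in YOD1 libraries, and 5 of them were tested with 0 called. For 3 of the 8, Adgre1, C1qb and Lyz2, all YOD1 libraries lay above the controls, against 6.95% of all genes, and for 0 below. Of the 5 tested markers, 4 were higher on the log2 scale and Cd68 was lower. Cd68, with the highest control mean of the 8, stood at 19.1, 22.87 and 12.65 FPKM in the controls. It stood at 12.26, 12.89 and 15.35 FPKM in the YOD1 libraries, with overlap and a ratio of means of 0.741. Csf1r was nearly level, with a ratio of means of 1.045. C1qb, a complement gene of macrophages, stood at 1.09, 0.941 and 0.932 FPKM in the controls and 1.25, 1.64 and 1.77 FPKM in the YOD1 libraries (limma adjusted p = 0.214). Lyz2, a lysozyme gene of myeloid cells, stood at 1.47, 8.15 and 9.04 FPKM in the controls and 10.5, 18.0 and 18.7 FPKM in the YOD1 libraries. It was thus lowest in control 1, as were 8 of the members, but was not highest in YOD1 library 2 (limma adjusted p = 0.158). The 5 endothelial markers summed to 0.832, 1.5 and 1.48 FPKM in the controls and 1.38, 2.11 and 2.48 FPKM in the YOD1 libraries. The 5 lymphocyte markers in the table summed to at most 0.326 FPKM in any library, and Cd3e was listed at 0 in 5 of 6. The 6 fibroblast markers summed to 11.6 to 14.0 FPKM in control and 5.87 to 12.6 FPKM in YOD1 libraries. The part of other cells in the GTPase values was not tested, and in bulk samples a few cells with much of a transcript and many cells with little cannot be told apart.

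Most other genes of the Gbp and Irg families were low. Of 22 such genes in a list, 21 were in the table, 18 stayed under 1 FPKM in all libraries and 2 were tested. In 9 of the 21 the YOD1 libraries all lay above the controls, against 6.95% of all genes, and in 1 below. YOD1 library 2 was highest in 13, against 16.8% of all genes. Gbp9 stood at 0.125, 0.349 and 0.346 FPKM in the controls and 0.611, 1.32 and 0.791 FPKM in the YOD1 libraries, with no overlap. The authors' deposited table lists Gbp9 with q = 0.00266 and Gbp4 with q = 0.0104. The effector Irg genes Tgtp1 and Tgtp2, close copies of each other, had ratios of means of 3.65 and 3.71, uncertain where reads were split between them. Ifi47, an Irg gene also known as Irgd, had a log2 fold change of 0.49 (SE 0.17, limma adjusted p = 0.164), with no overlap between groups. Irgq, a divergent Irg family member, had the opposite sign, at 5.33 to 7.39 FPKM in control and 4.01 to 4.25 FPKM in YOD1 libraries (limma: log2 fold change -0.52, adjusted p = 0.14).

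**Figure D4:**
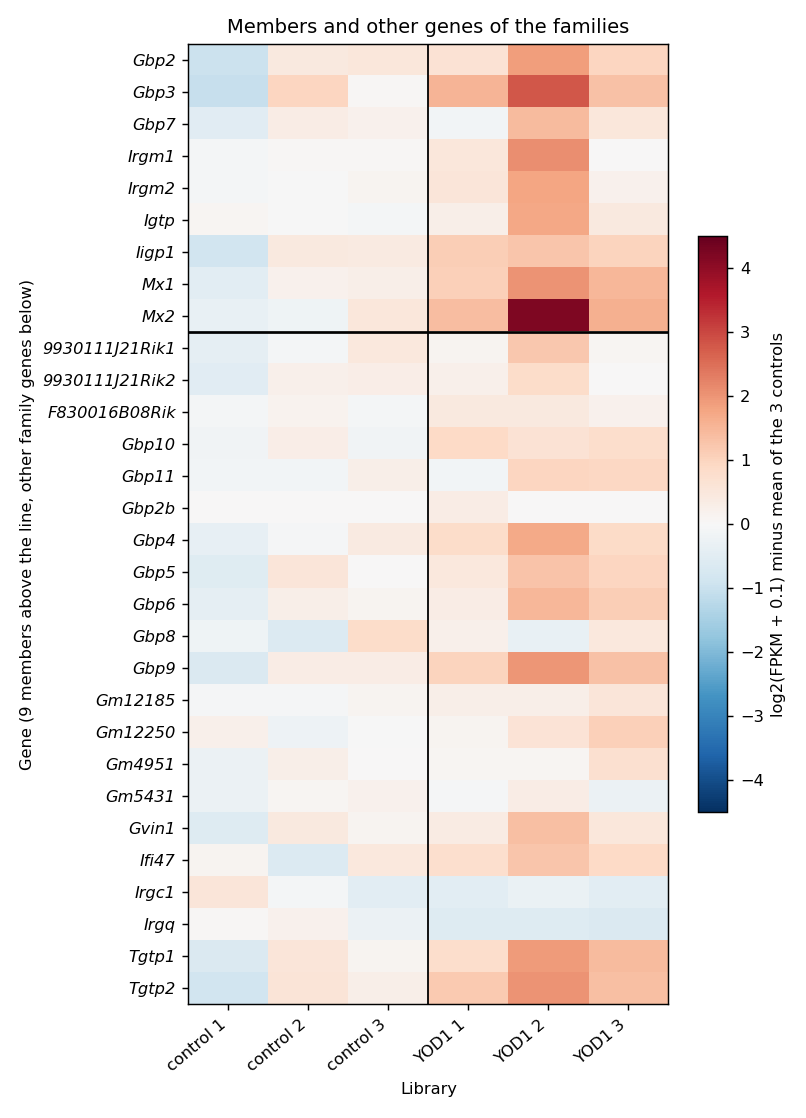
Colour gives log2(FPKM + 0.1) of each gene (rows) in each library (columns) minus the mean of the 3 controls; the 9 members stand above the horizontal line and 21 other family genes below it. Red, for higher values, is strongest in the column of YOD1 library 2, and blue marks control 1 for Gbp2, Gbp3 and Iigp1 among others.

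Dynamin and atlastin GTPases, relatives with roles in membrane fission and fusion and not known as interferon targets, had other values. All 8 tested of 10 were lower on the log2 scale, with a median change of -0.32 against -0.10 over all tested genes, and 0 were called by limma. Among tested genes 36.4% were above 0 on that scale. Dnm2, a dynamin of endocytosis, stood at 28.1 to 30.3 FPKM in control and 22.8 to 24.5 FPKM in YOD1 libraries (limma adjusted p = 0.214). YOD1 library 2 was the highest library in 0 of these 10 genes, against 16.8% of all genes. In a list of 10 genes that is not far from the share.

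Upstream of the GTPases, interferon genes were nearly absent from the table. Of 10 listed ligand genes 2 had a row: Ifnb1 was listed at 0 in 5 libraries and at 0.281 FPKM in YOD1 library 3, and Ifnl3 at 0.00917 FPKM in control 1 alone. The 6 interferon receptor genes were all tested, with log2 fold changes from -0.47 (Ifnlr1) to -0.06 (Ifngr1), and 0 were called. Most tested genes were also below 0 on this scale, with a median of -0.10 and 36.4% above 0.

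Of 10 kinase and transcription factor genes, all tested, 1 was called higher and 0 lower. It was Irf7, an interferon regulatory factor that is itself interferon-induced, at 2.73, 3.19 and 3.86 FPKM in the controls and 26.9, 93.3 and 38.2 FPKM in the YOD1 libraries (limma: log2 fold change 3.47, adjusted p = 0.00534). Its value was also highest in YOD1 library 2, with all YOD1 libraries far above the controls. Irf9, a DNA-binding partner of STAT factors, stood at 4.55, 5.68 and 5.94 FPKM in the controls and 9.87, 25.4 and 9.82 FPKM in the YOD1 libraries (limma: log2 fold change 1.20, adjusted p = 0.115). Both Irf7 (q = 1.05e-10) and Irf9 (q = 6.09e-05) are marked as significant in the authors' deposited table. Irf1, an activator of Gbp genes, stood at 21.5 to 28.9 and 23.2 to 24.1 FPKM (limma: log2 fold change -0.07, adjusted p = 0.793). Jak2, the kinase in the series' title, stood lower by a limma log2 fold change of -0.32 (adjusted p = 0.338).

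Of 6 inhibitors of the pathway 5 were tested and 0 were called. Usp18, which dampens the type I interferon receptor, stood at 1.12, 1.45 and 1.51 FPKM in the controls and 7.84, 55.9 and 8.47 FPKM in the YOD1 libraries (limma: log2 fold change 2.84, adjusted p = 0.0759). It is marked as significant in the authors' deposited table (q = 0.000485). Socs1, which blocks JAK kinases, was at most 0.280 FPKM in any library.

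**Figure D5:**
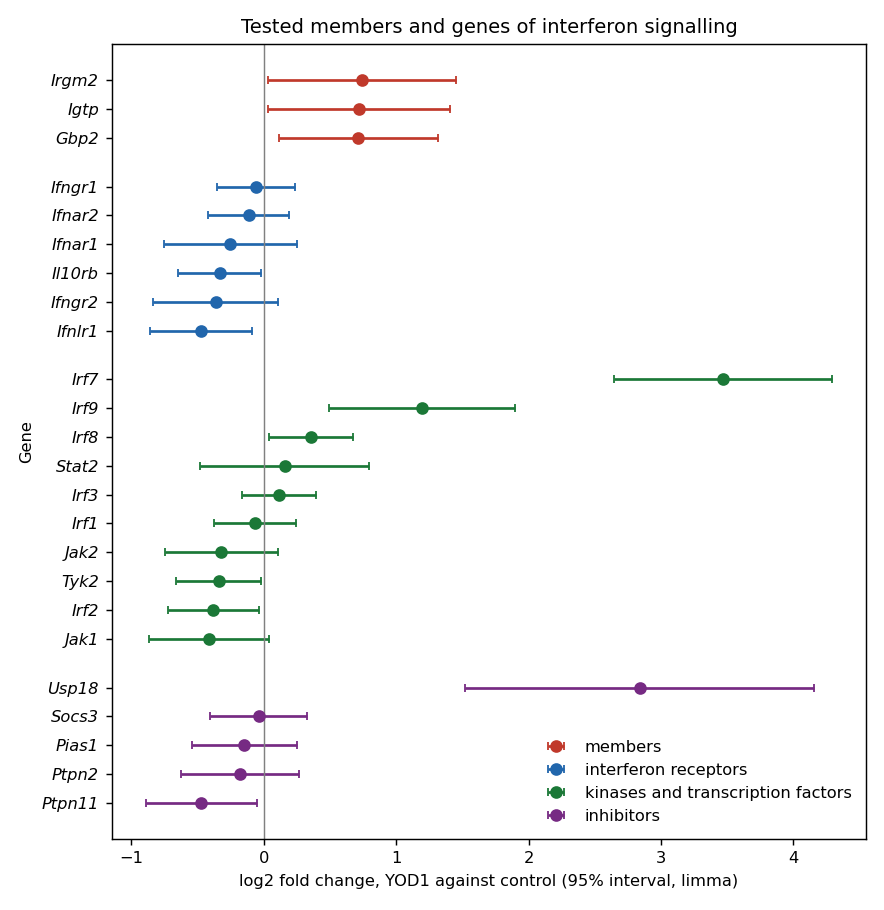
Log2 fold change of YOD1 against control (x axis, log2(FPKM + 1) scale, bars give 95% intervals from limma) for the 3 tested members and for tested interferon receptors, kinases and transcription factors, and inhibitors (rows). Irf7 at 3.47 is the gene called at an adjusted p of 0.05. The members lie at 0.71 to 0.74 and all 6 receptors lie below 0, where 36.4% of all tested genes were above 0.

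Downstream, autophagy proteins that place the GTPases on vacuoles were well expressed. All 10 were tested, 2 had a log2 fold change above 0 and 0 were called, with a median of -0.17. Inflammasome genes linked to Gbp proteins were low: 7 of 8 stayed under 1 FPKM in all libraries. In 3 of the 8 the YOD1 libraries all lay above the controls, against 6.95% of all genes, and in 0 below. Gsdmd, the pore-forming gasdermin D, was tested (limma: log2 fold change 0.32, adjusted p = 0.255). It stood at 8.49 to 10.85 FPKM in control and 10.88 to 13.23 FPKM in YOD1 libraries, so the groups barely missed overlapping.

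The 9 members followed one another across the 6 libraries. Over their 36 pairs Pearson's r of log2(FPKM + 1) ran from 0.625 (Iigp1 with Irgm1) to 0.992 (Irgm1 with Irgm2), with a median of 0.891. These are descriptions over 6 libraries that share the group difference and the high YOD1 library 2. The tested genes most like the mean profile of Gbp2, Igtp and Irgm2 were Xaf1 (r = 0.996), Oas3 (0.993), Shisa5 (0.99), Dhx58 (0.989), Rtp4 (0.989), Adar (0.988), Zbp1 (0.988) and Irf9 (0.985). Oas3 stood at 0.844, 1.24 and 1.82 FPKM in the controls and 3.76, 33.3 and 4.77 FPKM in the YOD1 libraries. Xaf1 stood at 0.310, 0.534 and 0.752 FPKM in the controls and 1.43, 8.56 and 1.76 FPKM in the YOD1 libraries. Shisa5 and Adar were also highest in YOD1 library 2, with ratios of means of 1.29 and 1.34.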

How the data were processed

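The authors deposited 1 table with FPKM per gene and library, with fold ratios, log2 ratios, p-values and q-values of their own, per the file headers. The ratio matched the deposited FPKM means, and no source used here names the test behind the p-values. The build mm8 and the tools Bowtie 0.12.2, HISAT2 2.0 and StringTie 1.3.0 are listed in the submitters' processing notes without their roles. RNA was poly(A)-selected and sequenced in pairs, per the labels' protocols; strand is not given. Unused columns of sample values numbered 0.

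The 11483 genes that reached 1 FPKM in 3 or more libraries were compared on log2(FPKM + 1) with limma 3.58.1 in R 4.3.3 (intensity trend, two-sided, Benjamini-Hochberg over all tested genes, threshold 0.05), after a check on simulated data. Fold changes on this scale understate changes of low genes. An exact permutation test of 3 against 3 cannot reach 0.05 and was not used.

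Members and gene lists were chosen with earlier results of these data known. Named were all members, called genes of the lists, and the 8 tested genes with the highest r to the mean profile of the tested members; other list genes were named after their values were seen, and a gene of the signalling list is not reported here. Promoters came from RefSeq (GRCm38.p6) and were matched by symbol; transcript lengths and shared 50-base stretches came from GENCODE M21. Neither build is mm8, so no coordinates were carried over. Python 3.11.15 and Biopython 1.88 were used. Alternatives were other filters, pseudocounts, scalings, length and GC correction, a replicate block, and leaving out each library.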

Additional observations from a re-analysis of the deposited data

How the results depend on the processing

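The fold changes of Gbp2, Igtp and Irgm2 stayed above 0 and above the threshold of 0.05 in limma adjusted p in every alternative run, with adjusted p from 0.154 to 0.452, 0.172 to 0.473 and 0.115 to 0.476. With each library left out they ranged over 0.454 to 0.896, 0.302 to 0.961 and 0.313 to 1.03. Gbp2 and Irgm2 could not be tested at a filter of 5 FPKM, which they did not pass. The 6 members under the filter kept a positive difference in the alternatives run for them (pseudocount, median-ratio scaling, no filter with and without the block, and each library left out), and a pseudocount of 0.1 raised that of Gbp3 to 1.88, Gbp7 to 0.611, Iigp1 to 1.13, Mx1 to 1.52 and Mx2 to 2.40.

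Over all genes, 55 were called, 51 higher and 4 lower. Without a filter 0 were called (1411 higher at an unadjusted p under 0.05 in limma, none by adjusted p). Median-ratio scaling called 169 (160 higher, 9 lower) and moved the median log2 fold change of all genes from -0.10 to -0.01; Gbp2, Igtp and Irgm2 then had 0.77, 0.81 and 0.83. Leaving out rRNA genes called 32 (28 higher), removing length and GC trends 20 (14 higher, 6 lower), and a fold change of at least 1 left 2 lower. Leaving out 1 library gave 19 to 242 calls (17 to 145 higher, 1 to 97 lower): 31 without control 1, 19 without control 2, 242 without control 3 and 132 without YOD1 library 3. Deviations of same-numbered libraries correlated at 0.296, -0.121 and -0.112, and those of different-numbered libraries from -0.409 to 0.339. With 3 libraries a group these values depend on each other. They cannot decide whether the replicate numbers pair the samples. With the replicate block 33 genes were called higher and 8 lower, and Gbp2, Igtp and Irgm2 had limma adjusted p of 0.154, 0.226 and 0.227.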
